A study of Mus musculus with 4 samples.

Results

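The chaperone genes described here are the testis HSP70 gene Hspa2, 3 further HSP70 genes (Hspa5, Hspa8 and Hspa9), 3 genes of the HSP110 branch of that family (Hspa4, Hspa4l and Hsph1) and the cytosolic HSP90 genes Hsp90aa1 and Hsp90ab1. These 9 genes were taken by symbol from the 32285 gene IDs counted, and earlier results of these data were known when they were chosen. All 9 were detected. Each passed the filter on low values in 11 or 12 of the 12 cell populations tested.

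The study counted RNA molecules in single testis cells at postnatal day 15, when the most advanced germ cells of a mouse are in meiotic prophase, and asked what MEIOC does as germ cells pass from mitosis to meiosis. It had 2 wild-type and 2 Meioc-null libraries, each from 1 testis of 1 pup of the C57BL/6N strain, and each of 2 batches was a pair of littermates, 1 of either genotype. Meioc-null pups carried the null allele tm1.1Dpc of Meioc. Pups of both genotypes were also heterozygous for the null allele Hspa2tm1Dix and homozygous for a ROSA26 tdTomato reporter whose stop cassette was intact. Every Hspa2 level below, also in the pups called wild-type, thus comes from animals with 1 altered Hspa2 allele, and the counts cannot tell the alleles apart. Interstitial tissue was largely discarded during dissociation, which limits what the somatic cells stand for.

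Libraries held 158291903 to 190455307 unique molecular identifiers (UMIs), and barcodes with more than 1000 detected genes and under 10% mitochondrial UMIs, less called doublets, left 5644 and 7505 wild-type and 6554 and 6522 Meioc-null cells. Their median depth was 11548 to 14354 UMIs, and any pair of libraries shared 8 to 15 barcodes. Germ cells fell into 11 ordered clusters. Cluster 1 was undifferentiated spermatogonia-like, clusters 2 to 6 differentiating spermatogonia-like, cluster 7 unnamed and led by Stra8, clusters 8 to 10 early spermatocyte-like and cluster 11 pachytene spermatocyte-like. Meioc-null cells took the cluster of the wild-type cells nearest to them, with no limit on distance, so no cluster of Meioc-null cells alone could form. The study reported such a mutant-only cluster, mostly of cells in G2/M phase, and designated some Meioc-null cells as pachytene spermatocytes. Where those cells were placed here was not tested. Cluster 11 held 217 and 317 wild-type cells and 0 Meioc-null cells in either library, and cluster 10 held 284 and 711 wild-type against 71 and 94 Meioc-null cells. Sertoli-like cells (288 to 413 per library) and peritubular myoid-like cells (546 to 715) were the somatic populations tested. Meioc itself was counted in both genotypes, at 629.7 and 679.6 CPM (UMIs of a gene per 1000000 UMIs) in wild-type cluster 7 and at 665 and 637 CPM in Meioc-null cluster 7. Cluster 4 held 266 and 272 CPM of Meioc in the wild-type against 186 and 210 CPM in the Meioc-null libraries, and it was higher in the Meioc-null libraries in cluster 8 (636 and 600 against 769 and 766 CPM) and cluster 9 (493 in both against 768 and 798 CPM). The sources used here do not say which part of the gene is altered, so these 3′ counts do not check the genotype labels.

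HSP70 proteins bind unfolded stretches of other proteins in cycles driven by ATP. J-domain proteins deliver clients and start ATP hydrolysis, and nucleotide exchange factors, among them the HSP110 proteins, reset the cycle, after which clients can pass to HSP90 through the adaptor made from Stip1. Hspa2 encodes the HSP70 of spermatocytes and spermatids, which sits on the synaptonemal complex and is needed in male mice to complete meiotic prophase. Hspa5 encodes BiP, the HSP70 of the endoplasmic reticulum, Hspa9 that of mitochondria and Hspa8 the constitutive HSP70 of the cytosol.

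The genes lie at chr12:76404176-76406938 (Hspa2, plus strand), chr11:53259814-53300457 (Hspa4, minus), chr3:40744495-40796103 (Hspa4l, plus), chr2:34771970-34777547 (Hspa5, plus), chr9:40800984-40810087 (Hspa8, plus), chr12:110690605-110702728 (Hsp90aa1, minus), chr17:45567775-45573271 (Hsp90ab1, minus) and chr5:149614287-149636376 (Hsph1, minus) of GRCm38. Promoter windows from RefSeq (GRCm38.p6, 250 bases before to 50 after a listed start) were at hand for 5 of the 9 genes. Those of Hspa2, Hspa5 and Hsph1 are shown because these genes ran along different courses and their windows held different motifs. The starts used for these genes lie inside the gene spans given above, so bases before a start can belong to the span. Both strands were searched for the CCAAT box (CCAAT), the endoplasmic reticulum stress element (CCAAT and CCACG with any 9 bases between them, so it includes a CCAAT box), the cAMP response element (TGACGTCA) and the heat shock element, in which GAA and TTC alternate with any 2 bases between them, in 2 units or in 3 (the longer form includes the shorter), and capitals mark these. The GC box (GGGCGG) and the E-box (CACGTG) were searched as well and are not in capitals. The windows are chr12:76404120-76404419 (plus strand), chr2:34771840-34772139 (plus strand) and chr5:149636287-149636586 (minus strand), each written on the strand of its gene.
Hspa2: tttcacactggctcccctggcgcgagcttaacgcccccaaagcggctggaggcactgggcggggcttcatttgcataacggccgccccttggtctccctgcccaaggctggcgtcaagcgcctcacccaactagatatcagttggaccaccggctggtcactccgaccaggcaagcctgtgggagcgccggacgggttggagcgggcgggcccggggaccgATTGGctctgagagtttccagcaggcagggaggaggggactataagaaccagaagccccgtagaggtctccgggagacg
Hspa5: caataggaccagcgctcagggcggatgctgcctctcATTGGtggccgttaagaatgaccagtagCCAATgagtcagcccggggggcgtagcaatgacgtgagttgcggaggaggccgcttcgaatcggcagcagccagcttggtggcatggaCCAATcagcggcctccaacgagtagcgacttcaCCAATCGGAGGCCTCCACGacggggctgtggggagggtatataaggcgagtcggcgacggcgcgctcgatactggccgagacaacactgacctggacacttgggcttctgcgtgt
Hsph1: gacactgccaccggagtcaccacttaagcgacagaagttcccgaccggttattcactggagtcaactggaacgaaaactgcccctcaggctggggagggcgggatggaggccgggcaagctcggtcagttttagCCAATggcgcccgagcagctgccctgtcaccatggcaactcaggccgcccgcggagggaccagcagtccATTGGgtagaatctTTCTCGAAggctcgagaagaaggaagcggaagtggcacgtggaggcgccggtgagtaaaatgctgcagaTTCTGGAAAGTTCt

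The Hspa2 window held a CCAAT box that began 29 bases before the start and no heat shock element, and CCAAT boxes stood in 37.9% of the 27025 mouse promoter windows searched. Hspa5 had 4 CCAAT boxes. The one nearest the start, at 65 bases before it, was part of an endoplasmic reticulum stress element, which 0.130% of windows held. Hsph1 had a heat shock element of 3 units 37 bases after the start (0.529% of windows) and one of 2 units 33 bases before it (15.1% of windows). It also had CCAAT boxes 116 and 47 bases before the start and an E-box (7.24% of windows) 3 bases after it. From a second listed start of Hsph1 the element of 3 units lies 16 bases after the start. GC boxes (35.9% of windows) numbered 3 in the Hspa2, 1 in the Hspa5, 2 in the Hsph1 and 4 in the Hspa4l window. The Hspa4l window held none of the other motifs and the Hspa4 window none of all those searched. A match of letters describes the window and is not evidence of binding.

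Hspa2 RNA rose late and steeply along the wild-type germ cells. It stood at 17.7 CPM in cluster 1 of wild-type replicate 1 and at 9.95 CPM in that of replicate 2, and stayed between 13.1 and 39.9 CPM through clusters 2 to 6. The wild-type libraries then held 42.7 and 38.2 CPM in cluster 7. They rose to 98.9 and 77.4 CPM in cluster 8 and stayed near that level, at 114 and 97.96 CPM, in cluster 9. Cells of cluster 10 reached 546 and 466 CPM, and cluster 11 held 1238 and 1082 CPM. The mean of cluster 11, 1160.3 ± 110.2 CPM (SD, n = 2), was 84.0 times that of cluster 1. The step from cluster 9 to 10 was 4.80-fold in replicate 1 and 4.76-fold in replicate 2, and was the longest between neighbouring clusters. Clusters 11 and 10 lay above every other population, clusters 9 and 8 and the myoid-like cells overlapped below them, and when the other populations were ranked without the Leydig-like cells (23 and 54 cells) by mean level, from cluster 7 at the top to cluster 1 at the bottom, each overlapped the next in rank. These levels are a description without a test, since the clusters were made from the same cells, although the 9 genes and the chaperone lists used further on were kept out of the genes that made the clusters.

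**Figure D1:**
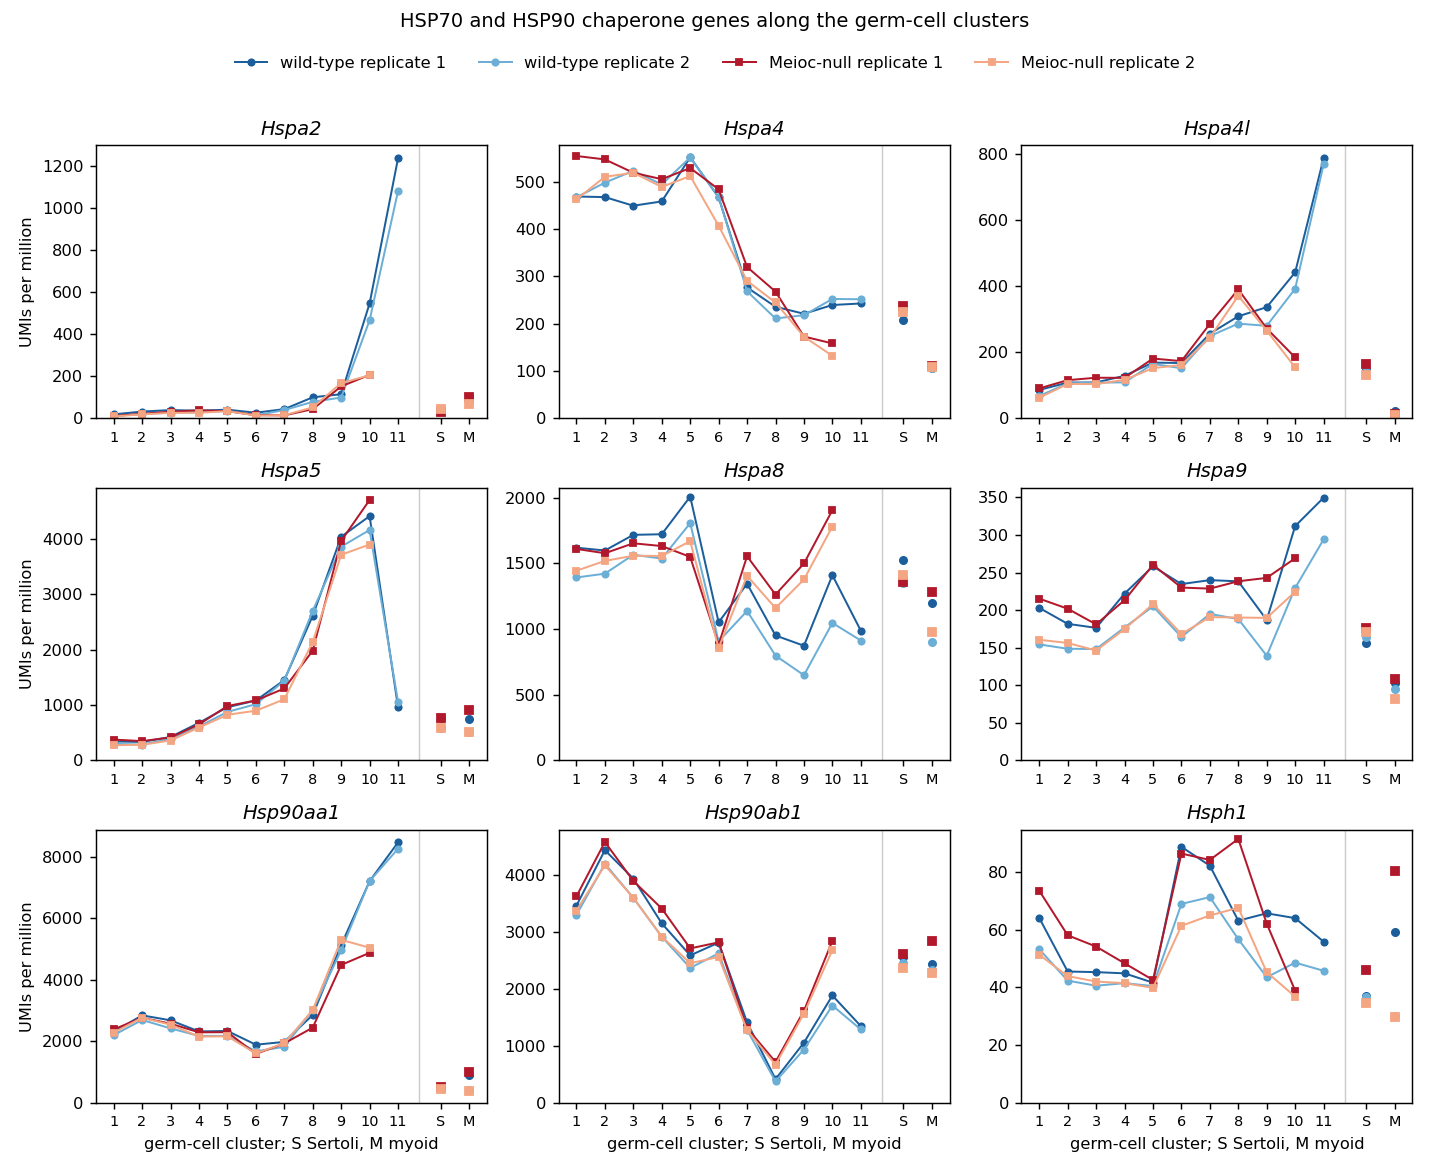
Level of each of the 9 chaperone genes in CPM (vertical axis, from 0, scaled per gene) by germ-cell cluster 1 to 11 and in Sertoli-like (S) and peritubular myoid-like (M) cells (horizontal axis), with a point for each library. Hspa2 stayed under 40 CPM up to cluster 6 and reached 1238 and 1082 CPM in cluster 11, which has no Meioc-null cells, while Hspa5 peaked in cluster 10 and Hsp90ab1 was lowest in cluster 8.

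Single cells gave the same picture of Hspa2 at equal depth. With each cell thinned to 2000 UMIs, 2.46% (1.23 to 4.35%, exact 95% binomial interval for counting error only) and 1.82% (0.879 to 3.33%) of wild-type cluster 1 cells held an Hspa2 UMI. The share was 62.5% (56.6 to 68.2%) and 54.1% (50.4 to 57.9%) in cluster 10 and 90.0% (85.1 to 93.8%) and 84.5% (80.1 to 88.3%) in cluster 11, so most pachytene-like cells held the transcript. Cluster 1 serves as the low comparison, as no large population known to lack Hspa2 was at hand. Without thinning, its shares were 36.4% and 22.6% at median depths of 28770 and 28115 UMIs, against 98.2% and 96.8% in cluster 10 at 13909 and 13463 UMIs.

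**Figure D2:**
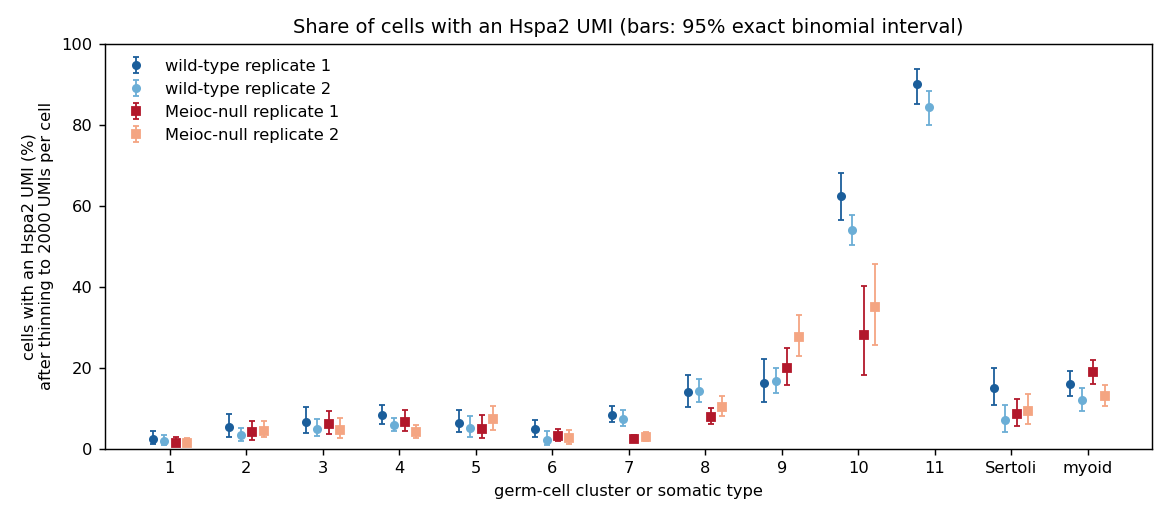
Share of cells with at least 1 Hspa2 UMI after thinning to 2000 UMIs per cell (vertical axis, percent) by cell population (horizontal axis) and library, with exact 95% binomial intervals as bars. Wild-type shares went from 2.46% and 1.82% in cluster 1 up to 90.0% and 84.5% in cluster 11, while Meioc-null shares in cluster 10 were 28.2% and 35.1%.

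Of the somatic populations tested, Hspa2 was higher in peritubular myoid-like cells, where wild-type libraries had 98.7 and 74.0 CPM and Meioc-null libraries 101 and 68.2 CPM. The genotypes overlapped. Sertoli-like cells, at median depths of 2256 to 3396 UMIs, had 45.4 and 35.3 CPM in wild-type pups and 31.2 and 42.5 CPM in Meioc-null pups. They joined a first-level cluster of 498 wild-type cells (median 2176 UMIs) and one of 205 (median 39564 UMIs). Each deep cell thus weighs more in the summed levels. Ldhc, a lactate dehydrogenase gene of pachytene spermatocytes, was counted in wild-type cells that should lack it. Its level was 22.5 and 5.67 CPM in wild-type myoid-like cells, or 0.870% and 0.293% of that in cluster 11, against 0.142 and 0 CPM in Meioc-null ones. The same percentages of the cluster 11 level of Hspa2 come to 10.8 and 3.18 CPM in the wild-type libraries. The part of free RNA in these somatic levels was not tested.

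The HSP110 genes followed separate courses. Hspa4l climbed from 85.1 and 66.9 CPM in wild-type cluster 1 to 256 and 248 CPM in cluster 7, 441 and 392 CPM in cluster 10 and 787 and 768 CPM in cluster 11, a 10.2-fold span. Hspa4 ran the other way, from 552 CPM in both wild-type libraries of cluster 5 to 221 and 218 CPM in cluster 9. Hsph1 moved least of the 3, between 41.7 and 40.5 CPM in cluster 5 and 88.8 and 69.0 CPM in cluster 6. Levels of different genes are not compared here.

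Hspa5, the reticulum chaperone, rose earlier than Hspa2 and fell again. Its wild-type level went from 343 and 299 CPM in cluster 1 through 1452 and 1440.2 CPM in cluster 7 to 4416 and 4166 CPM in cluster 10. In cluster 11 it was back at 963 and 1058 CPM, or 0.218 and 0.254 of cluster 10. The 13 other endoplasmic reticulum stress genes listed summed to 7721 and 6787 CPM in wild-type cluster 10 and 3963 and 3866 CPM in cluster 11. The constitutive Hspa8 was highest in cluster 5 (2007 and 1805 CPM), a cluster led by the mitotic genes Plk1 and Ube2c, and lowest in cluster 9 (872 and 648 CPM). The mitochondrial Hspa9, on chromosome 18, spanned only 1.98-fold, from 176 and 148 CPM in cluster 3 to 349 and 294 CPM in cluster 11, and replicate 1 exceeded replicate 2 in all 11 wild-type clusters.

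The HSP90 genes, whose products are close relatives, differed in where they were highest and lowest, while both rose from cluster 8 to 10. Hsp90aa1 was lowest in wild-type cluster 6 (1888 and 1673 CPM) and rose to 5130 and 4964 CPM in cluster 9, 7214 and 7219 CPM in cluster 10 and 8475 and 8268 CPM in cluster 11. Hsp90ab1 peaked in cluster 2 (4442 and 4203 CPM), dropped to 1413 and 1281 CPM in cluster 7 and to 413 and 374 CPM in cluster 8, and was back at 1886 and 1709.6 CPM in cluster 10. From cluster 7 to 8 it kept 0.293 and 0.292 of its level, nearly the same in both libraries. Sertoli-like cells of wild-type pups had 518 and 464 CPM of Hsp90aa1, below all 11 germ-cell clusters, and 2569 and 2458 CPM of Hsp90ab1, within the germ-cell range.

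The genotypes were compared within each population by edgeR's quasi-likelihood test on UMIs summed per library. A gene was called at a Benjamini-Hochberg adjusted p under 0.05 with a log2 difference over 0.1 in size, and differences are wild-type over Meioc-null. No call was made for the 9 genes up to cluster 6. In clusters 1 to 6, edgeR and DESeq2 each called 0 of 53 tests, with 1 and 2 tests at an unadjusted p under 0.05 and edgeR differences of -0.17 to 0.61. Of all genes tested, edgeR called 0.0118%, 0.0117%, 0.0256%, 0.0%, 0.233% and 2.45% in clusters 1 to 6 in that order. In Sertoli-like and myoid-like cells edgeR and DESeq2 each called 0 of 16 tests, with 0 at an unadjusted p under 0.05, against 0.0422% and 0.112% of all genes. A fit with the littermate pair as a block called Hspa2 in cluster 1 (0.59, edgeR adjusted p 0.0136, beside 0.259% of all genes, past the filter through wild-type cells alone) and Hspa8 in cluster 5 (0.27, edgeR adjusted p 0.000125, beside 9.51%), both higher in wild-type cells. For Hspa2 in cluster 1 the wild-type excess over the Meioc-null mean was 8.59 and 0.849 CPM. Ldhc was counted there at 20.1 and 8.03 CPM in the wild-type against 4.81 and 3.24 CPM in the Meioc-null libraries, and its part in the Hspa2 difference was not tested.

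Calls became frequent among all genes from cluster 7 on and among the 9 genes from cluster 8 on. In cluster 7 edgeR called 1 of the 9, beside 24.8% of all genes, and in cluster 8 it called 6, beside 50.7%. Cluster 9 gave 5 calls beside 57.0%, and cluster 10 gave 7 beside 62.9%. By direction, the cluster 7 call was higher in wild-type cells (9.95% of all genes, with 14.8% the other way). Cluster 8 had 2 calls up in wild-type and 4 up in Meioc-null cells (23.8% and 26.9%), cluster 9 had 1 and 4 (27.7% and 29.2%) and cluster 10 had 5 and 2 (31.5% and 31.3%). Against this background the counts do not set the 9 genes apart. Leaving out any 1 library gave fewer than these 19 calls, and calls among all genes fell in each of these clusters too. The median difference of all 9 genes was 0.09, -0.14, -0.03 and 0.62 in the 4 clusters, where medians of all genes were -0.01 to 0.00.

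**Figure D3:**
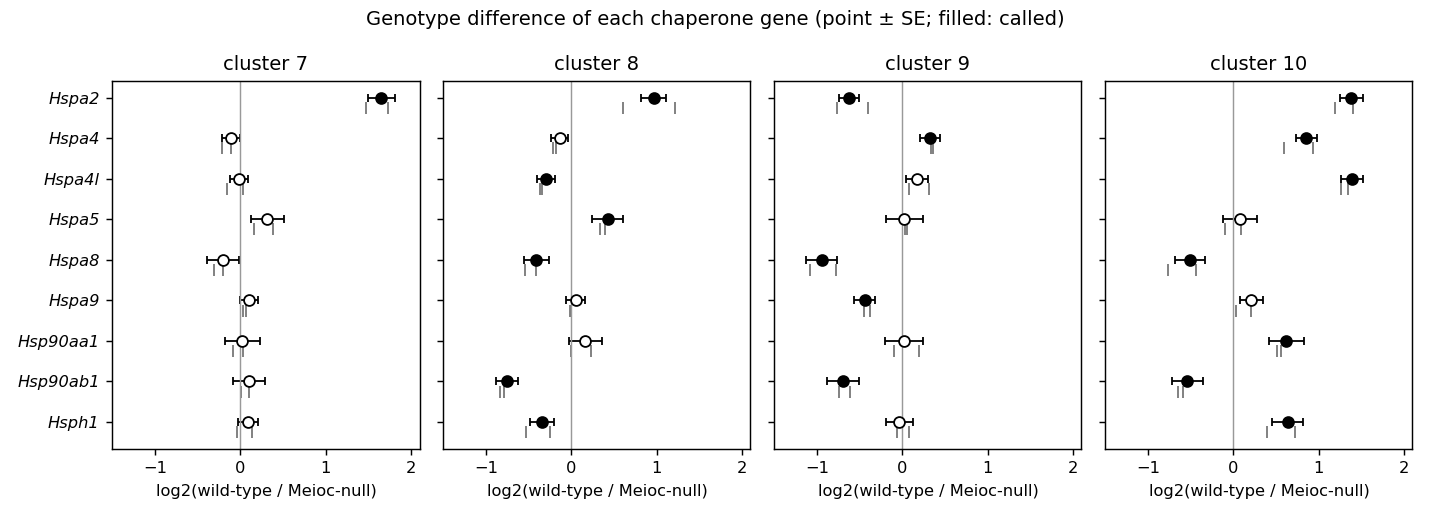
Log2 difference of wild-type over Meioc-null for each of the 9 chaperone genes in clusters 7 to 10, with bars of 1 SE, filled points where edgeR called the gene and grey ticks for the value within each batch. Hspa2 was higher in wild-type cells in clusters 7, 8 and 10 (1.65, 0.96 and 1.38) and lower in cluster 9 (-0.62), and Hspa4l and Hspa4 were higher in wild-type cluster 10 (1.39 and 0.86).

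Hspa2 was the gene called in cluster 7. Meioc-null cells had 12.9 and 13.7 CPM there and wild-type cells 42.7 and 38.2 CPM, so the genotypes did not overlap. The difference was 1.65 ± 0.16 (SE), or 3.14-fold, with an edgeR adjusted p of 7.9e-08, and it was 1.73 and 1.48 within the batches. Hspa2 was tested here because 33.8% of wild-type cells held a UMI of it, while the 13.8% of Meioc-null cells were under the 25% that the filter on low genes asked of either genotype. Without that filter the value for Hspa2 in cluster 7 was 1.62, still called. Thinned shares were 8.44% (6.53 to 10.7%) and 7.40% of wild-type and 2.46% (1.72 to 3.41%) and 2.82% of Meioc-null cells. The wild-type excess over the Meioc-null mean was 29.4 and 24.9 CPM. Ldhc stood at 22.6 and 4.77 CPM in wild-type cluster 7, or the same share of its cluster 11 level as 10.8 and 2.67 CPM of Hspa2. Single spermatocyte markers also differed in cluster 7, in both directions. Psma8 had 26.3 and 20.8 against 11.3 and 12.4 CPM, Gml 26.7 and 20.3 against 13.7 and 11.97 CPM, Meiob 26.3 and 40.5 against 15.1 and 19.3 CPM and Tesmin 55.0 and 53.0 against 35.3 and 36.4 CPM, while Mns1 of the pachytene list had 46.8 and 34.4 against 65.2 and 54.7 CPM. The mitotic cyclin gene Ccnb1, which passed the filter through Meioc-null cells alone, had 11.3 and 8.47 against 41.0 and 42.8 CPM (-2.03 ± 0.17, edgeR adjusted p 1.31e-08). The sum of the 8 early spermatocyte markers was 3275 and 2973 against 2877 and 2703 CPM and that of the 8 pachytene markers overlapped. The part of Ldhc and of these genes in the Hspa2 difference was not tested. From cluster 6 to 7 the genotype difference of Hspa2 grew by 1.05 (edgeR interaction test, adjusted p 1.18e-05). Hspa2 was under the filter in cluster 6 and entered this test through wild-type cluster 7 alone, where it was high, so the test is not independent of the filter.

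Meioc-null cells did gain Hspa2 in later clusters. In cluster 8 they had 42.6 and 50.8 CPM against 98.9 and 77.4 CPM in wild-type cells (0.96 ± 0.15, edgeR adjusted p 3.72e-06), with differences of 1.21 and 0.61 within the batches. In cluster 9 the order turned, as Meioc-null cells had 151 and 167 CPM and wild-type cells 114 and 97.96 CPM (-0.62 ± 0.12, edgeR adjusted p 1.96e-06). In cluster 10 Meioc-null cells had 206 and 203.8 CPM where wild-type cells had 546 and 466 CPM (1.38 ± 0.13, 2.61-fold, edgeR adjusted p 2.91e-09). The genotypes overlapped in none of these clusters. Thinned shares of Meioc-null cells in cluster 10, 28.2% (18.1 to 40.1%) and 35.1% (25.5 to 45.6%), lay below those of both wild-type libraries. The genotype difference changed by -0.65 from cluster 7 to 8, by -1.58 from 8 to 9 and by 1.99 from 9 to 10 (edgeR interaction tests, adjusted p 0.00304, 2.35e-11 and 4.62e-44). Such changes were called for 5 of the 9 genes at the step into cluster 7, Hspa2 among them, 4 into cluster 8, 7 into cluster 9 and 8 into cluster 10, beside 31.8%, 36.2%, 43.9% and 47.1% of all genes.

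Cells of the genotypes placed in 1 cluster differed in stage markers. In cluster 10 the 8 pachytene markers summed to 924 and 813 CPM in the wild-type against 207 and 227 CPM in the Meioc-null libraries, with Ccna1 at 0 in all 4. The 7 differentiating markers summed to 234 and 215 CPM in the wild-type against 1065 and 999 CPM in the Meioc-null libraries, and the sum of the 8 early spermatocyte markers overlapped. Single early markers did not overlap there and went both ways, with Gml at 637 and 543 against 156 and 157 CPM, Meiob at 351 and 335 against 131 and 125 CPM and Dmc1 at 102 and 99.3 against 224 and 183 CPM. In cluster 9 the pachytene markers summed to 664 and 549 against 324 and 342 CPM, and the differentiating markers to 235 and 209 against 697 and 636 CPM. In cluster 8 the same lists summed to 313 and 294 against 204 and 213 CPM and to 399 and 349 against 597 and 567 CPM. The pachytene sum was thus higher in wild-type and the differentiating sum higher in Meioc-null cells in all 3 clusters. This included cluster 9, where the Hspa2 difference turned. Single pachytene markers went both ways. Tesmin had 201 and 213 against 109 and 122 CPM in cluster 8 and 365 and 315 against 115 and 128 CPM in cluster 9. Mns1 had 24.5 and 18.9 against 48.2 and 44.0 CPM in cluster 8 and 81.2 and 69.3 against 118 and 115 CPM in cluster 9. The part of stage markers in the differences given here was not tested. Cluster 9 was found in 1 of 4 clusterings. With 10 or 12 ordered clusters, or with the chaperone genes used for clustering, no cluster matched it. The higher Hspa2 of its Meioc-null cells, like the cluster 9 values of all other genes given here, thus rests on that clustering. Hspa2 in clusters 7, 8 and 10 was called in all 14 alternatives that gave a value, with differences down to 0.38 in cluster 8 (chaperone genes used for clustering) and to 0.52 in cluster 10 (coarser clusters).

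The HSP110 genes were lower in Meioc-null cells in cluster 10. Hspa4l had 441 and 392 CPM in the wild-type against 184 and 154 CPM in the Meioc-null libraries (1.39 ± 0.13, edgeR adjusted p 1.52e-09). Wild-type levels were above and Meioc-null levels below those of cluster 9, which were 336 and 279.5 against 271 and 265 CPM. Hspa4 had 239 and 252 against 158 and 132 CPM (0.86 ± 0.12, edgeR adjusted p 1.19e-06), and Hsph1 had 64.1 and 48.6 against 38.9 and 36.8 CPM (0.64 ± 0.18, edgeR adjusted p 0.00367). In cluster 10 edgeR called 62.9% of all genes, so these 3 calls do not set the HSP110 genes apart. The calls of Hspa4l and Hspa4 held in all 14 alternatives, though Hspa4l in cluster 10 fell to 0.73 with coarser clusters, while that of Hsph1 in cluster 10 did not survive leaving out wild-type replicate 1 (0.48) or Meioc-null replicate 2 (0.64).

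Other calls of the HSP110 genes were less stable. In cluster 8 Hspa4l was higher in Meioc-null cells (308 and 286 against 389.9 and 370.3 CPM, -0.29 ± 0.11, edgeR adjusted p 0.0218), a call lost without any 1 of the 4 libraries (-0.32 to -0.26) and held in 7 of 14 alternatives. Hsph1 in cluster 8 (63.2 and 56.8 against 91.6 and 67.7 CPM, -0.35 ± 0.14, edgeR adjusted p 0.0391) was no longer called once Meioc-null replicate 1 (-0.16) or wild-type replicate 2 (-0.29) was left out, and it held in 8 of 14 alternatives. Hspa4 in cluster 9 was 0.33 ± 0.12 higher in wild-type cells (221 and 218 against 173 and 172 CPM, edgeR adjusted p 0.0139), and that call was lost without either wild-type library or Meioc-null replicate 1 (0.30 to 0.35) and held in 6 of 11 alternatives.

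Hspa8 was higher in Meioc-null cells in clusters 8, 9 and 10. In cluster 9 they had 1498 and 1377 CPM against 872 and 648 CPM in wild-type cells (-0.94 ± 0.18, edgeR adjusted p 4.47e-06), called in all 11 alternatives that kept this cluster. In cluster 8 they had 1262 and 1159 against 950.4 and 797 CPM (-0.41 ± 0.15, edgeR adjusted p 0.0241), and in cluster 10 1904 and 1779.7 against 1409 and 1046 CPM (-0.51 ± 0.18, edgeR adjusted p 0.0156). The genotypes did not overlap in these clusters. The call of Hspa8 in cluster 8 was lost without either wild-type library or Meioc-null replicate 1 (-0.51 to -0.31), and that of Hspa8 in cluster 10 without either Meioc-null library or wild-type replicate 2 (-0.52 to -0.34). Each held in 10 of 14 alternatives. Hspa9 was called in cluster 9 alone, at 187 and 139 CPM for the wild-type against 243 and 189.6 CPM for the Meioc-null libraries (-0.44 ± 0.12, edgeR adjusted p 0.00153). The call of Hspa9 in cluster 9 was lost without wild-type replicate 2 (-0.25) or Meioc-null replicate 1 (-0.30).

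Hspa5 climbed to a like level in both genotypes. Cluster 9 had 4043 and 3864 CPM in the wild-type against 3968 and 3718 CPM in the Meioc-null libraries (0.02 ± 0.22, edgeR adjusted p 0.94), and cluster 10 had 4416 and 4166 against 4708 and 3903 CPM (0.08 ± 0.20, edgeR adjusted p 0.738). Its 1 call was in cluster 8, at 2616 and 2702 against 1985 and 2141 CPM (0.43 ± 0.18, edgeR adjusted p 0.0469). That call of Hspa5 in cluster 8 was lost without either wild-type library or Meioc-null replicate 1 (0.34 to 0.48), and it held in 6 of 14 alternatives. With the pair as a block, Hspa5 was also called in cluster 7 (0.32, edgeR adjusted p 0.000197), and so was Hspa8 in the other direction (-0.21, edgeR adjusted p 0.0189), beside 41.9% of all genes.

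The HSP90 genes differed between genotypes in opposite directions in cluster 10. Hsp90ab1 was higher in Meioc-null cells of cluster 8, at 717 and 669 CPM against 413 and 374 CPM (-0.75 ± 0.13, edgeR adjusted p 8.58e-06), called in all 14 alternatives. Cluster 9 had 1617 and 1569 against 1056 and 935 CPM (-0.70 ± 0.19, edgeR adjusted p 0.00075) and cluster 10 had 2847 and 2685 against 1886 and 1709.6 CPM (-0.54 ± 0.18, edgeR adjusted p 0.0117), again with no overlap. The genotype difference of Hsp90ab1 changed by -0.83 from cluster 7 to 8 (edgeR interaction test, adjusted p 9.67e-07). Hsp90ab1 in cluster 9 lost its call without wild-type replicate 2 (-0.64), and Hsp90ab1 in cluster 10 without either wild-type library (-0.57 and -0.50) or without the filter on low genes (-0.39).

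Hsp90aa1 was higher in wild-type cluster 10, at 7214 and 7219 CPM against 4881 and 5047 CPM (0.62 ± 0.21, edgeR adjusted p 0.012), whereas the genotypes overlapped in clusters 8 and 9. The call of Hsp90aa1 in cluster 10 was lost without either wild-type library or Meioc-null replicate 1 (0.56 to 0.66), and also with coarser clusters (0.35) and finer clusters (0.45), so that 9 of 14 alternatives held it. The block fit also called Hsp90aa1 in cluster 8 (0.17, edgeR adjusted p 0.0326, beside 64.3% of all genes) and Hspa9 in cluster 10 (0.20, edgeR adjusted p 0.0414, beside 68.7%).

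Genes that work with these chaperones were described by list in cluster 10, where edgeR called 62.9% of all genes. Of 19 HSP90 co-chaperone genes tested (of 20 listed), 10 were called up in wild-type and 3 up in Meioc-null cells, with a median difference of 0.43. Stip1, the adaptor between HSP70 and HSP90, had 355 and 326 CPM in the wild-type against 118 and 109.9 CPM in the Meioc-null libraries (1.66 ± 0.12, edgeR adjusted p 3.55e-11), and Chordc1 (1.46), Ttc4 (1.35) and Ppid (1.22) went the same way. Of 10 chaperonin genes tested (of 11), most of them subunits of the ring that folds actin and tubulin, 8 were up in wild-type and 1 up in Meioc-null cells, with a median of 0.85. Cct4 had 407 and 341 against 123 and 119.7 CPM (1.70 ± 0.13), with Cct8 at 1.27 and Cct6a at 1.22, and the mitochondrial co-chaperonin Hspe1 had 289 and 287 against 613 and 694 CPM (-1.11 ± 0.14). All 8 genes named here kept their calls in 14 alternatives. With coarser clusters the differences were smaller for Stip1 in cluster 10 (0.97), Chordc1 in cluster 10 (0.69), Ppid in cluster 10 (0.76) and Cct6a in cluster 10 (0.64).

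Lists that act on HSP70 were mixed in cluster 10, where 31.5% of all genes were up in wild-type and 31.3% up in Meioc-null cells. Of 24 J-domain genes tested (of 31), 9 were up in wild-type and 5 up in Meioc-null cells, with a median of 0.22. Among the 24, 2 passed the filter through Meioc-null cells alone and 1 through wild-type cells alone, so these counts are not independent of it. Dnaja4 had 46.8 and 49.3 CPM in the wild-type against 7.45 and 6.91 CPM in the Meioc-null libraries (2.83 ± 0.26). Dnaja4 passed the filter through wild-type cells alone, as its Meioc-null level rests on 9 and 12 UMIs. Dnajc3, a co-chaperone of BiP, was at 1.21, Dnajb6 at 0.72 and Dnajc1 at -0.66. Of 10 exchange factors and regulators tested (of 12), 4 were up in wild-type and 1 up in Meioc-null cells (median 0.25). The HSP70-interacting protein gene St13 had 887 and 907 against 372 and 399 CPM (1.30 ± 0.15), and Sil1 (0.51), Bag6 (0.46) and the mitochondrial Grpel2 (-0.86, past the filter in Meioc-null cells alone) were called with smaller differences. Leaving out 1 library ended each of these 3 calls: Meioc-null replicate 1 for Bag6 in cluster 10 (0.34 without it), Meioc-null replicate 2 for Sil1 in cluster 10 (0.38) and wild-type replicate 2 for Grpel2 in cluster 10 (-0.62). Bag6 in cluster 10 was also not called with coarser clusters (0.20) or with libraries thinned to the same UMI total (0.39), and Sil1 in cluster 10 was at 0.29 with finer clusters. St13 in cluster 10 was called in all 14 alternatives, down to 0.73 with coarser clusters.

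Of 4 heat shock factor genes tested in cluster 10 (of 6), 3 were higher in wild-type cells and 0 in Meioc-null cells (median 1.00). These were Hsf2 (1.17), Hsf5 (1.06) and the factor-binding Hsbp1 (0.94). Of all genes there, 31.5% were called up in wild-type and 31.3% up in Meioc-null cells. Clusters 7, 8 and 9 had 1, 0 and 2 of 3 factor genes up in wild-type cells (medians -0.06, -0.15 and 0.40). None was up in Meioc-null cells. In cluster 10, of 5 other HSP70 and HSP90 genes tested (of 10), 2 were higher in each genotype (median -0.25). Hyou1, an exchange factor of the reticulum, was at 0.72 and the mitochondrial HSP90 gene Trap1 at 0.56. The reticulum HSP90 gene Hsp90b1, at 1617 and 1647 CPM for the wild-type against 2914 and 2709.9 CPM for the Meioc-null libraries, was at -0.70, and Hspa14 at -0.34. Trap1 in cluster 10 lost its call without wild-type replicate 2 (0.44) or Meioc-null replicate 2 (0.31) and by DESeq2 (0.54). Hspa14 in cluster 10 lost its call without wild-type replicate 2 or either Meioc-null library (-0.36 to -0.29) and held it in 5 of 14 alternatives. Coarser clusters gave 0.39 for Hsf5 in cluster 10 and 0.41 for Hyou1 in cluster 10, both still called. Of 13 endoplasmic reticulum stress genes, 4 were up in wild-type and 3 up in Meioc-null cells (median -0.02). Among them were the disulfide isomerases Pdia6 (1.04) and Pdia3 (0.67), Creld2 (0.54) and the stress transcription factor Xbp1 (-1.58). Xbp1 was 1 of 2 genes of this list that passed the filter through Meioc-null cells alone, so these counts are not independent of it. Cluster 7 had 5 of this list up in wild-type and 1 up in Meioc-null cells of 11 tested (9.95% and 14.8% of all genes). Cluster 8 had 5 and 1 of 10 (23.8% and 26.9%) and cluster 9 had 3 and 2 of 12 (27.7% and 29.2%).

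Of 7 genes whose products are known to work with HSPA2, 4 were up in wild-type and 1 up in Meioc-null cells of cluster 10 (median 0.46). The shares of all genes there were 31.5% and 31.3%. Clusters 7 and 8 each had 0 and 3 of 6 tested (medians -0.55 and -0.77). The shares of all genes were 9.95% and 14.8% in cluster 7 and 23.8% and 26.9% in cluster 8. Cluster 9 had 2 and 4 of 7 (median -0.48), beside 27.7% and 29.2%. Ccnb1 entered in cluster 7 through Meioc-null cells alone. In cluster 10 Shcbp1l had 63.2 and 61.6 CPM in the wild-type against 2.48 and 6.33 CPM in the Meioc-null libraries (3.79 ± 0.28). The Meioc-null level of Shcbp1l rests on 3 and 11 UMIs, and it was tested because 57.4% of wild-type cells held one. The synaptonemal complex genes Sycp1 (1.07) and Sycp3 (0.68) were higher in wild-type cells, and the cyclin gene Ccnb1, whose product pairs with CDK1, had 91.5 and 67.4 against 171 and 153.7 CPM (-0.97 ± 0.14). Sycp3 in cluster 10 lost its call without wild-type replicate 2 (0.55) or Meioc-null replicate 1 (0.56), and with coarser clusters (0.13), finer clusters (0.16) or the chaperone genes used for clustering (0.44), so it held in 9 of 14 alternatives. Sycp1 and Sycp3 were also called higher in wild-type myoid-like cells (1.34 and 0.74), cells that should lack them and in which both genes passed the filter through the wild-type libraries alone, where Ldhc was likewise counted in wild-type libraries.

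**Figure D4:**
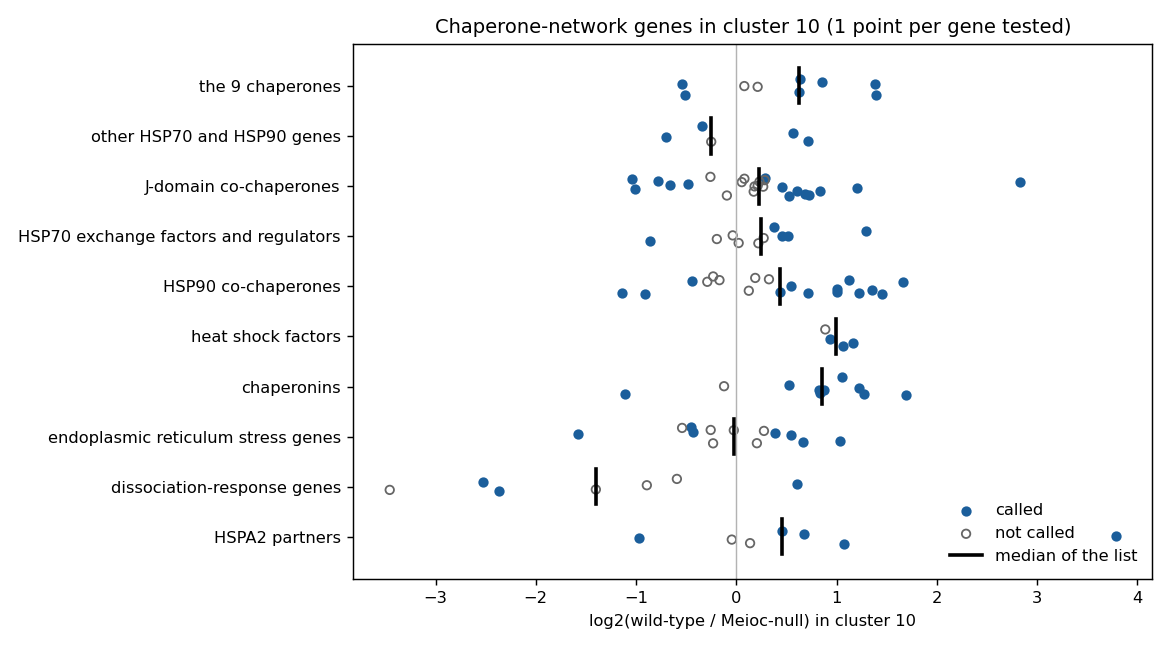
Log2 difference of wild-type over Meioc-null in cluster 10 (horizontal axis) for each tested gene of the 9 chaperones and of 9 wider lists (rows), filled where edgeR called the gene, with the list median as a black bar. The median was 0.62 for the 9 chaperones and 1.00 for heat shock factors, while 5 of the 7 dissociation-response genes passed the filter through Meioc-null cells alone, so the bar of that list is no measure of it.

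The genes with a wild-type course most like that of Hspa2, by Pearson r of log2(CPM + 1) over 26 sums per population and library among 10769 genes, were Dis3l (0.954), Fsip2 (0.947), Dnah7a (0.942), Thoc7 (0.921), Spata4 (0.918) and Cers3 (0.918). The points share libraries and depth, so r is a description. In cluster 10 Spata4 had 44.9 and 37.3 CPM in the wild-type against 1.65 and 3.45 CPM in the Meioc-null libraries (3.97 ± 0.35), the latter from 2 and 6 UMIs. Cers3 (2.41), Dnah7a (1.18) and Dis3l (0.97) were also called higher in wild-type cells by edgeR. Spata4 and Cers3 passed the filter through wild-type cells alone. Thoc7 (0.26, edgeR adjusted p 0.0579) and Fsip2 (0.23, edgeR adjusted p 0.176) were not called. The other chaperone genes stood lower in likeness to Hspa2, from 0.573 for Hspa5, 0.569 for Hsp90aa1 and 0.551 for Hspa4l to -0.529 for Hspa4.

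In myoid-like cells several of the 9 chaperone genes differed between batches in both genotypes. Hspa1a, a heat-inducible HSP70 gene outside the 9, had 811 CPM in the wild-type and 1309 CPM in the Meioc-null library of batch 1 and 60.5 and 62.7 CPM in batch 2. Its near-identical copy Hspa1b had 228 and 432 against 22.5 and 25.7 CPM, and reads can be split between the copies, so their separate values are uncertain. Neither was called by genotype there. Of the 9 genes, Hsp90aa1 had 908 and 987 CPM in batch 1 and 397 and 385 CPM in batch 2 (ratios of 2.29 and 2.56), and Hsph1 had 59.1 and 80.5 against 29.9 and 29.8 CPM (1.97 and 2.70). Hspa2 (1.33 and 1.49), Hspa5 (1.47 and 1.79) and Hspa8 (1.33 and 1.32) also lay higher in batch 1, while Hspa4 overlapped (1.00 and 1.02). In germ-cell cluster 4 batch 1 also lay above batch 2 for 8 of the 9 genes, all but Hspa4, as in myoid-like cells. The highest ratio there was 1.45, with 1.26 and 1.22 for Hspa9 and 1.07 in both genotypes for Hsp90aa1. Other germ-cell clusters had larger ratios, such as 1.78 and 1.95 for wild-type Hspa2 in clusters 1 and 6 (Meioc-null 1.34 and 1.15). Hsph1 in cluster 9 had 1.51 in the wild-type and 1.37 in the Meioc-null libraries. Over all genes tested, deviations of same-numbered libraries correlated at 0.20 in myoid-like cells and 0.65 in cluster 4. The share of all genes that differed between batches was not counted, so these values do not set the 9 genes apart. Hspa1a was low in cluster 4, at 4.27 and 6.42 CPM in batch 1 and 0.991 and 0.582 CPM in batch 2. Each batch was its own pair of littermates with its own library preparation and sequencing, and these cannot be told apart.

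Of 7 dissociation-response genes tested in cluster 10 (of 17), Btg2 (-2.53) and Ier2 (-2.37) were higher in Meioc-null and Dnajb1 (0.61) in wild-type cells. Of these 7, 5 passed the filter through Meioc-null cells alone, among them Btg2 (7.14% of wild-type and 41.2% of Meioc-null cells with a UMI), Ier2 (6.33% and 31.5%), Fos and Jun, so their direction is not independent of the filter. Fos (-3.46, edgeR adjusted p 0.0605) and Jun (-0.89, edgeR adjusted p 0.412) were not called there. Leaving out Meioc-null replicate 2 ended the call of Dnajb1 in cluster 10 (0.42), as did coarser clusters (0.045). The whole list summed to 322 and 212 CPM in wild-type cluster 10 and 619.8 and 311 CPM in Meioc-null cluster 10, against 16385 to 22594 CPM in myoid-like cells.

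**Figure D5:**
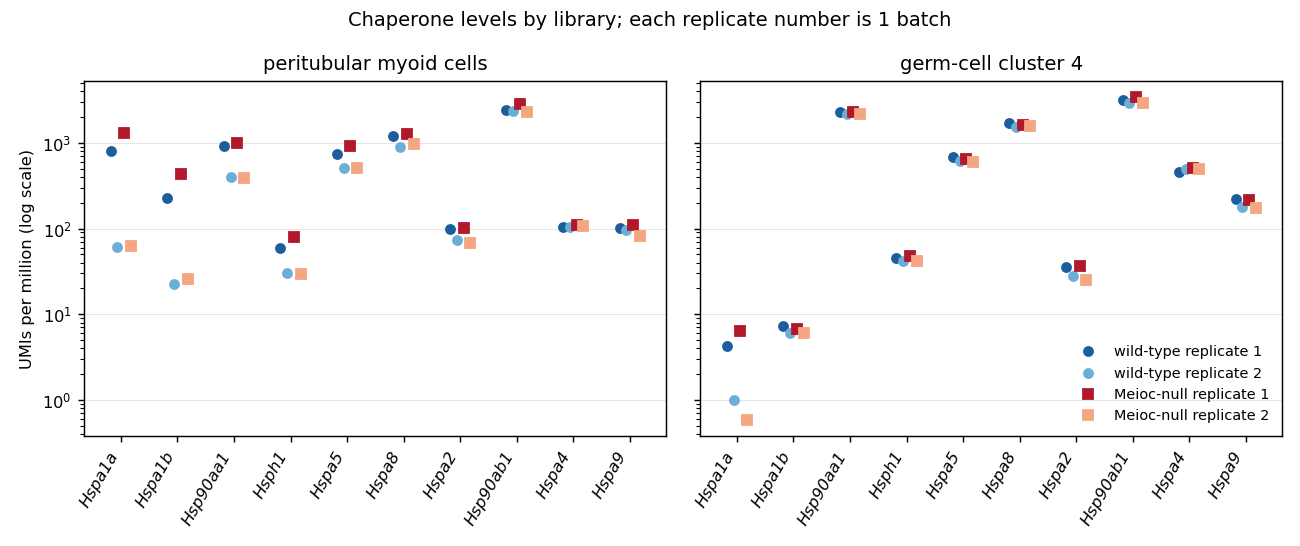
Levels in CPM (vertical axis, log scale) in peritubular myoid-like cells and in germ-cell cluster 4, with a point for each library. The replicate number is the batch. Shown are Hspa1a, Hspa1b and the chaperone genes except Hspa4l, which was under the filter on low genes in myoid-like cells. Hspa1a in myoid-like cells was at 811 and 1309 CPM in batch 1 and at 60.5 and 62.7 CPM in batch 2, and Hsp90aa1 ratios between batches in cluster 4 were 1.07.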

How the data were processed

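Single-cell UMI counts per gene were deposited for 4 libraries. Per the labels and the submitters' processing notes, the authors made these counts with Cell Ranger 4.0.0 on mm10 (GRCm38) from 10x 3′ libraries and used Seurat. Barcodes with more than 1000 genes and under 10% mitochondrial UMIs were kept, less the top Scrublet scores (0.8% per 1000 barcodes). Cells were clustered with scanpy 1.11.5 (2000 variable genes without the chaperone lists, 30 components, Leiden), and each cell took the most frequent cluster of its 30 nearest wild-type cells, which returned 98.7% of wild-type cells to their own. The number of germ-cell clusters (11 ordered at resolution 0.4, against 10 at 0.3 and 12 at 0.5) and the ratio of class scores under which a cluster was named (0.75) were chosen after clusterings had been seen. UMIs were summed per library in populations with at least 50 cells in each, and edgeR tested genes seen in 25% or more of the cells of a genotype (version 4.0.16, TMM, robust quasi-likelihood, R 4.3.3). DESeq2 1.42.0 was an alternative. Interaction tests compared consecutive clusters with the library as a block. Simulated log2 differences of 1 were recovered at 94% in cluster 9 (6105 genes) and at 85% in cluster 3 (7801 genes) and in Sertoli-like cells (4736 genes), beside 5, 12 and 6 false calls in that order. Replicate numbers mark littermate pairs and batches in the labels, and deviations of same-numbered libraries correlated at 0.20 to 0.65 over 12 populations. With 2 pups per genotype, p-values rest on few animals. All 9 chaperones were to be named. From each wider list up to 4 genes were named, those with the smallest adjusted p in cluster 10 among genes called and moving alike in both batches, with Fos, Jun, Hspa1a and Hspa1b besides, and the 6 genes most like Hspa2. The members and lists were chosen with earlier results of these data known.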

Additional observations from a re-analysis of the deposited data

Results flagged for a closer look

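The genotype difference of a chaperone gene changed between consecutive germ-cell clusters in 25 of the tests made, each called by an edgeR interaction test (adjusted p under 0.05). Of all genes, 0.622% were called at the step from cluster 4 to 5 and 31.8% to 47.1% at the steps from cluster 6 on. All values are changes of the log2 difference of wild-type over Meioc-null.

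For Hspa2 the difference changed by 1.05 from cluster 6 to 7, by -0.65 from 7 to 8, by -1.58 from 8 to 9 and by 1.99 from 9 to 10. Hspa2 was under the filter on low genes in cluster 6 and entered the first of these tests through wild-type cluster 7 alone. For the HSP110 genes, Hspa4l changed by -0.25 from 7 to 8, by 0.45 from 8 to 9 and by 1.22 from 9 to 10. Hspa4 changed by -0.20 from 6 to 7, by 0.46 from 8 to 9 and by 0.53 from 9 to 10, and Hsph1 by -0.40 from 7 to 8 and by 0.64 from 9 to 10.

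Hspa5 changed by 0.22 from cluster 6 to 7 and by -0.42 from 8 to 9. Hspa8 changed by 0.23 from 4 to 5, by -0.39 from 6 to 7, by -0.56 from 8 to 9 and by 0.42 from 9 to 10, and Hspa9 by -0.50 from 8 to 9 and by 0.62 from 9 to 10. Of the HSP90 genes, Hsp90aa1 changed by -0.15 from 6 to 7, by -0.16 from 8 to 9 and by 0.58 from 9 to 10, and Hsp90ab1 by -0.83 from 7 to 8 and by 0.15 from 9 to 10. Steps into and out of cluster 9 rest on a clustering that the alternatives with other cluster numbers did not give. Consecutive clusters share libraries, and stage markers differed by genotype within clusters 7 to 10.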

How the results depend on the processing

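Of the alternatives, 874 results kept direction and side of the threshold, 71 fell below it, 13 passed it, 21 changed sign and 4 counts moved. Calls of the 9 genes in clusters 7 to 10, 19 in all, came to 12 with coarser clusters, 12 with finer clusters and 11 with the chaperone genes used for clustering, each over 3 clusters only, to 12 without the filter on low genes, and to 10 (wild-type replicate 2 left out) to 16 without 1 library. With the replicate block they were 23, and 2 in place of 0 in clusters 1 to 6, where leaving out 1 library gave 0 to 1. The block changed the calls printed with it in the report and no other call of the 9 genes. The coarser and finer clusters were chosen after seeing the data.

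No called difference changed sign. Signs turned for Hsp90aa1 in cluster 7 (-0.016 with the chaperone genes used, -0.013 without the filter, -0.031 to 0.074 without 1 library), Hsph1 in cluster 7 (-0.11 with the chaperone genes used, -0.036 to 0.24 without 1 library), Hspa9 in cluster 8 (-0.062 with coarser and -0.058 with finer clusters, -0.11 with the chaperone genes used, -0.093 to 0.20 without 1 library), Hsp90aa1 in cluster 9 (-0.0055 without the filter, -0.12 to 0.20 without 1 library), Hsph1 in cluster 9 (0.013 thinned, -0.28 to 0.26 without 1 library) and Hspa9 in cluster 10 (-0.13 with coarser clusters). Leaving out 1 library also turned Hspa4l in cluster 7 (-0.080 to 0.045), Hspa9 in cluster 7 (-0.0029 to 0.20), Hsp90aa1 in cluster 8 (-0.016 to 0.37) and Hspa5 in cluster 10 (-0.012 to 0.18). The causes were not tested.

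A mitochondrial limit of 5% left too few cells for values in clusters 7 to 10. At 4000 UMIs per cell, the share of cluster 10 cells with Hspa2 was 82.7% and 76.7% for the wild-type against 53.6% and 52.7% for the Meioc-null libraries. The 71 and 94 Meioc-null cells of cluster 10 limit its precision.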

Other observations

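Populations too small or unnamed for the comparisons also held the chaperones. Leydig-like cells (23 and 54 wild-type, 27 and 64 Meioc-null) had Hspa2 at 18.0 and 17.7 CPM for the wild-type against 14.8 and 15.3 CPM for the Meioc-null libraries, and Hsp90aa1 at 899.6 and 551 CPM against 890.4 and 550.5 CPM, lower in the replicate 2 libraries of both genotypes. A somatic cluster with Lum and Dpt had Hspa2 at 45.6 and 23.9 against 37.1 and 19.4 CPM, Hspa5 at 1113 and 634 against 1014 and 664 CPM and Hspa8 at 1788 and 1095 against 1629 and 1215 CPM. Replicate 1 exceeded replicate 2 for these 3 genes in both genotypes there. No test was made in these cells.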
